A study of Mus musculus with 11 samples.

Results

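The macrophage identity genes Csf1r, Ptprc, Cd68, Fcgr1, C1qa, C1qb, C1qc, Lyz2, Tyrobp and Mpeg1 are 10 genes chosen by name, of 34570 genes listed for either cell type of the study. All 10 were listed among the 29450 genes of the mouse embryonic fibroblasts (MEFs), and 4 of them (Csf1r, Cd68, Lyz2 and Mpeg1) among the 31518 genes of the mouse embryonic stem cells (mESCs). Poly(A) RNA was sequenced from cells labelled Atxn7l3+/+ (WT) or Atxn7l3-/-, with a null allele of the gene for an adaptor protein of the deubiquitination module of the SAGA coactivator complex. The 11 libraries were 2 of WT mESCs, 3 of Atxn7l3-/- mESCs, 3 of WT MEFs and 3 of Atxn7l3-/- MEFs, all on a mixed DBA/2 x C57BL/6 background. The comparison asks how RNA levels differ without ATXN7L3 in each cell type. Each mESC line came from its own blastocyst and grew for its first passages on feeder cells, then without them, with LIF, 15% serum, PD0325901 (1 µM) and CH99021 (3 µM). Each MEF culture came from its own E10.5 embryo, after removal of the head and gut, and grew in 10% serum with no sorting step described, so other cells of the trunk may be present. Replicates with the same number in WT and Atxn7l3-/- are different animals. Libraries held between 34515342 and 49602605 counts in genes, and 3 counts, taken as the floor below which a level cannot be told from 0, corresponded to 0.0605 to 0.0869 CPM (counts relative to a library's total, scaled by TMM). The floor covers counting error only.

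Macrophages of the embryo arise from yolk sac and later from liver progenitors, settle in most tissues, and depend on the receptor CSF1R and its ligands CSF1 and IL-34 for survival. They engulf dying cells and debris, degrade them in lysosomes, and carry receptors that read antibodies, complement and lipids on a target's surface. Neither fibroblasts nor embryonic stem cells are known for making the C1q chains, CD45 or TYROBP.

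The label of genotype was checked first. Atxn7l3 (ENSMUSG00000059995, chr11:102289300-102296631 in mm10) stood at 222 and 223 CPM in the WT mESC libraries and at 3.91, 1.79 and 0.976 CPM in the Atxn7l3-/- ones. In MEFs it stood at 79.7, 104 and 92.9 CPM in WT 1, 2 and 3, and at 49.2, 49.5 and 67.3 CPM in Atxn7l3-/- 1, 2 and 3. Both cell types therefore had lower reads in every Atxn7l3-/- library than in any WT library, but the mESC mean was 0.0100 of WT and the MEF mean 0.599 of WT. By the quasi-likelihood test of edgeR, adjusted over all genes tested by the Benjamini-Hochberg method, the log2 fold change was −6.65 in mESCs (adjusted p 0.0211) and −0.74 in MEFs (adjusted p 0.0715, not past the threshold of 0.05). Without mESC WT 1 the mESC adjusted p was 0.138, and without mESC WT 2 it was 0.0659. DESeq2 gave 0.0227 in MEFs, where the alternatives ranged from 0.0227 to 0.235. MEF values below are therefore given for the libraries labelled Atxn7l3-/-, whose mean reads of the gene were 0.599 of WT; gene counts do not show where in the gene those reads lie.

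Levels of the 10 genes in MEFs were first compared per transcript length, as the authors' normalized reads per kb of median transcript length (mean ± SD, n = 3 WT cultures). Lyz2 led with 14792 ± 4586, then came Tyrobp (2991 ± 1441), C1qa (2549 ± 779), C1qc (1969 ± 427), C1qb (1943 ± 837), Cd68 (1259 ± 637), Csf1r (1218 ± 473), Mpeg1 (738 ± 374), Ptprc (200 ± 88.6) and Fcgr1 (133 ± 61.5). Lyz2 lay above all others by more than the spread, whereas the neighbours from Tyrobp down to Csf1r differed from each other by less than the larger of their SDs, as did Ptprc and Fcgr1. In the libraries labelled Atxn7l3-/- the means on the same scale were 77577 ± 67607 for Lyz2, 2974 ± 2661 for Tyrobp, 2433 ± 2033 for Cd68, 2220 ± 2076 for Mpeg1, 1119 ± 1012 for Csf1r, 940 ± 1285 for C1qa, 890 ± 1461 for C1qb, 663 ± 940 for C1qc, 341 ± 326 for Ptprc and 263 ± 300.1 for Fcgr1. There, each SD was close to or above its mean, and below Lyz2 no neighbours in that order were separated by more than their spread.

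Between genotypes in MEFs, edgeR (quasi-likelihood test, p adjusted by Benjamini-Hochberg) called 0 of the 10 genes at an adjusted p of 0.05 or less, against 9.41% (1501 of 15958) of all genes tested. At an unadjusted p under 0.05 stood 1 of the 10 (Lyz2) against 32.4% of all genes. With a block for replicate number, 0 of the 10 were called against 14.0% of all genes. DESeq2's Wald test called 1 (Lyz2), gave no adjusted p for 1 (C1qa), and called 24.8% of all genes. The median log2 fold change of the 10 was 0.35, with 5 of 10 above 0, beside −0.06 over all genes tested. Their median size of change, without sign, was 1.06 beside 0.61, and their median standard error 0.73 beside 0.39. The spread between cultures of 1 genotype was thus wider for these genes than for a typical gene, and upper-quartile scaling, which moved the median of all genes by −0.11, left the count at 0.

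**Figure D1:**
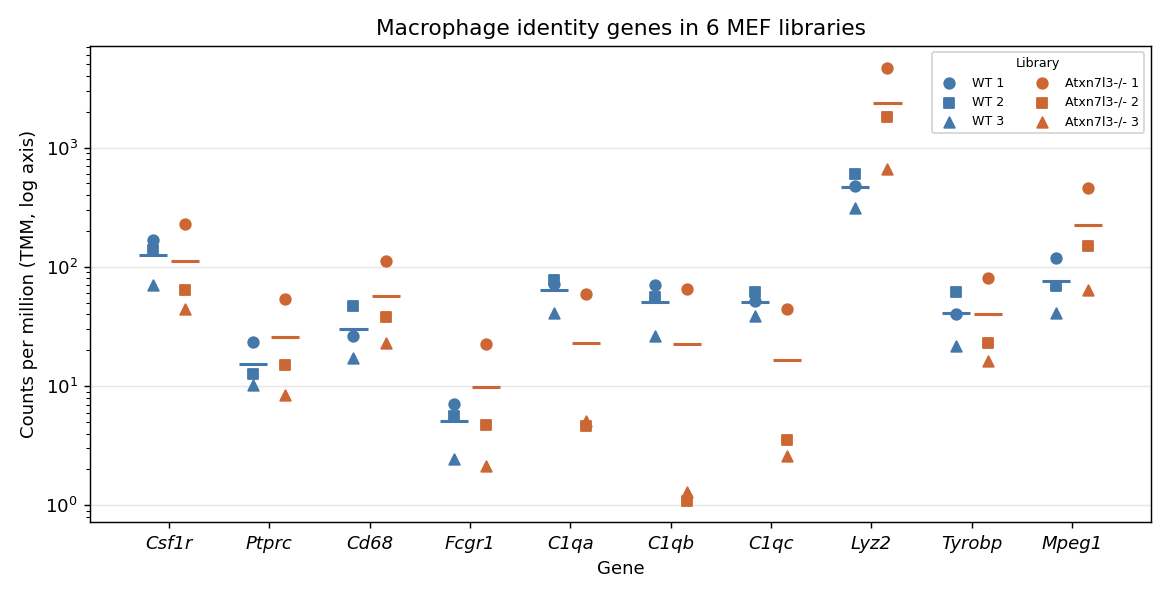
CPM of each of the 10 genes in the 6 MEF libraries, on a log axis, with WT in blue and libraries labelled Atxn7l3-/- in orange. Circle, square and triangle are replicates 1, 2 and 3 and short bars are arithmetic group means. In 10 of 10 genes replicate 1 is the highest of the orange libraries, and for Lyz2 alone the groups do not overlap.

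Single libraries shaped most of these values. Atxn7l3-/- 1 was the highest of the 3 Atxn7l3-/- libraries for 10 of 10 genes and the highest of all 6 libraries for 7 of 10, a position it held for 9.68% (1545) of the 15958 genes tested. WT 3 was the lowest WT library for 10 of 10. Highest over lowest CPM across the 6 libraries ran from 4.98 to 63.9 (median 10.9), beside a median of 2.81 over genes tested, without the 559 that had a 0 in some library. Within WT that ratio was 1.57 to 2.91 and within Atxn7l3-/- it was 4.92 to 59.9. Summed over the 10 genes the level was 1058, 1131 and 583 CPM in WT and 5819, 2119 and 827 CPM in Atxn7l3-/-. Lyz2 gave the most counts in every library, and without it the sums were 578, 528 and 269.6 CPM against 1129, 303 and 167 CPM. As bulk RNA was measured, more or fewer macrophages and more or less of each RNA per macrophage cannot be told apart.

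Csf1r and Tyrobp stand for signalling at the membrane: Csf1r encodes the receptor for CSF1 and IL-34, and Tyrobp encodes DAP12, an adaptor with an ITAM through which TREM2 and related receptors signal. Csf1r (ENSMUSG00000024621, chr18:61105572-61132149) stood at 167, 138 and 70.4 CPM in WT and at 229, 63.9 and 44.6 CPM in Atxn7l3-/-. Tyrobp (ENSMUSG00000030579, chr7:30413760-30417585) stood at 40.2, 61.4 and 21.8 CPM against 81.1, 22.9 and 16.3 CPM. For both genes Atxn7l3-/- 1 was the highest of the 6 libraries, Atxn7l3-/- 3 was the lowest, and the groups overlapped. The log2 fold changes were −0.15 (SE 0.65, adjusted p 0.884) for Csf1r and −0.04 (SE 0.66, adjusted p 0.973) for Tyrobp by edgeR. Their sign turned with single libraries: Csf1r was at 0.14 without Atxn7l3-/- 2, 0.26 without Atxn7l3-/- 3 and 0.11 without WT 1. Tyrobp was at 0.26 without Atxn7l3-/- 2, 0.37 without Atxn7l3-/- 3 and 0.41 without WT 2. Without Atxn7l3-/- 1 they were at −1.19 and −1.06, and with the replicate block at −0.44 and −0.28. Csf1r overlaps the gene Hmgxb3 on the opposite strand, and the strand used in counting was not stated, so some of its reads could belong to that gene.

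Ptprc and Fcgr1 mark the haematopoietic surface. Ptprc encodes CD45, a phosphatase of nearly all white blood cells, and Fcgr1 the high-affinity receptor for IgG. Ptprc (ENSMUSG00000026395, chr1:138062861-138175708) stood at 23.4, 12.6 and 10.2 CPM in WT and at 53.6, 15.0 and 8.43 CPM in Atxn7l3-/-. Fcgr1 (ENSMUSG00000015947, chr3:96282909-96293969) stood at 7.11, 5.66 and 2.44 CPM against 22.6, 4.70 and 2.12 CPM. In each case the Atxn7l3-/- libraries held both the highest and the lowest value of the 6, so WT lay inside the range of Atxn7l3-/-. Fold changes on the log2 scale were 0.74 (SE 0.70, adjusted p 0.488) for Ptprc and 0.95 (SE 0.89, adjusted p 0.479) for Fcgr1 by edgeR. Without Atxn7l3-/- 1 both turned negative, at −0.38 and −0.56, and with the replicate block both were at 0.39.

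Cd68, Mpeg1 and Lyz2 act in phagosomes and lysosomes. Cd68 encodes a heavily glycosylated membrane protein of late endosomes, Mpeg1 encodes perforin-2, a pore former that acts on engulfed bacteria, and Lyz2 encodes the lysozyme of macrophages and granulocytes, which cuts bacterial cell walls. Lyz2 (ENSMUSG00000069516, chr10:117277331-117282321) stood at 480, 603 and 314 CPM in WT and at 4691, 1816 and 660 CPM in Atxn7l3-/-. Every Atxn7l3-/- library lay above every WT library, by a narrow gap between Atxn7l3-/- 3 and WT 2. Lyz2 was the 1 gene of 10 whose groups did not overlap, while 39.8% (6347) of all genes tested in MEFs did not overlap. The mean was 466 ± 145 CPM in WT and 2389 ± 2075 CPM in Atxn7l3-/- (SD, n = 3), a ratio of 5.13. By edgeR the log2 fold change was 2.36 (SE 0.71) with an adjusted p of 0.0791, short of the threshold. It passed by DESeq2 (2.38, adjusted p 0.00421), with no filter on low counts (2.39, 0.0436), in 1 fit of all 11 libraries (2.39, 0.0235) and without Atxn7l3-/- 3 (2.84, 0.0338). Over all alternatives the adjusted p ranged from 0.00421 to 0.201, and without Atxn7l3-/- 1 the log2 fold change was 1.43 (adjusted p 0.181). The call therefore rested on the choice of test and on single libraries, and the direction, higher in 3 of 3 Atxn7l3-/- cultures, did not turn in any of the 13 alternatives.

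Mpeg1 (ENSMUSG00000046805, chr19:12460779-12465284) stood at 120, 69.3 and 41.3 CPM in WT and at 463, 150 and 63.5 CPM in Atxn7l3-/-. Atxn7l3-/- 1 and 2 exceeded every WT library and Atxn7l3-/- 3 fell among them. Its log2 fold change was 1.55 (SE 0.74, adjusted p 0.195), and 0.49 without Atxn7l3-/- 1. Cd68 (ENSMUSG00000018774, chr11:69664213-69666153) stood at 26.5, 47.2 and 17.3 CPM against 112, 37.7 and 22.8 CPM. Here only Atxn7l3-/- 1 lay above the WT range. Cd68 had a log2 fold change of 0.92 (SE 0.64, adjusted p 0.347) and of 0.01 without Atxn7l3-/- 1.

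The 3 C1q genes encode the chains of the molecule that starts the classical complement pathway, and tissue macrophages are a main source of it. They lie beside each other within 18675 bases of chromosome 4. C1qa (ENSMUSG00000036887, chr4:136895917-136898803) stood at 72.3, 77.1 and 40.9 CPM in WT and at 59.0, 4.61 and 5.14 CPM in Atxn7l3-/-. C1qb (ENSMUSG00000036905, chr4:136880129-136886187) stood at 70.0, 55.7 and 26.4 CPM against 65.6, 1.09 and 1.29 CPM. C1qc (ENSMUSG00000036896, chr4:136889804-136893065) stood at 51.6, 61.1 and 39.0 CPM against 43.9, 3.51 and 2.61 CPM. For all 3 genes Atxn7l3-/- 2 and 3 lay far below every WT library, while Atxn7l3-/- 1 lay within the WT range. In raw counts, C1qb had 3727, 1997 and 1209 in WT and 2840, 48 and 47 in Atxn7l3-/-, well above the floor of 3 counts in each library. With all 6 libraries edgeR gave log2 fold changes of −1.47 (SE 0.99, adjusted p 0.333) for C1qa, −1.16 (SE 1.45, adjusted p 0.602) for C1qb and −1.60 (SE 1.04, adjusted p 0.317) for C1qc. Without Atxn7l3-/- 1 they were −3.69 (adjusted p 0.0232), −5.39 (0.0206) and −4.03 (0.0181), all past the threshold. Over the alternatives the adjusted p ranged from 0.0232 to 0.576 for C1qa, from 0.0206 to 0.825 for C1qb and from 0.0181 to 0.560 for C1qc. With a block for replicate number, which pairs cultures of the same number, they were −2.51 (0.0999), −3.55 (0.130) and −2.87 (0.102), more than 1.5 times the unblocked values and not past the threshold.

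The promoters of C1qb, C1qc, Lyz2 and Cd68 are shown because these genes differed in their pattern across the same cultures. The RefSeq promoter table for GRCm38.p6 held 8 promoters for 7 of the 10 genes and none for Csf1r, C1qa or Tyrobp. Each of the 4 below is 300 bases on the minus strand, written 5′ to 3′, from 250 bases before to 50 after the start. They cover chr4:136886151-136886450 (C1qb), chr4:136892865-136893164 (C1qc), chr10:117282223-117282522 (Lyz2) and chr11:69666121-69666420 (Cd68). Capitals mark a PU box (GAGGAA, or TTCCTC on the other strand), the letters bound by PU.1 and other ETS factors, and a MAF element, the core letters of large MAF factor sites (TGCTGA, or TCAGCA on the other strand).
C1qb: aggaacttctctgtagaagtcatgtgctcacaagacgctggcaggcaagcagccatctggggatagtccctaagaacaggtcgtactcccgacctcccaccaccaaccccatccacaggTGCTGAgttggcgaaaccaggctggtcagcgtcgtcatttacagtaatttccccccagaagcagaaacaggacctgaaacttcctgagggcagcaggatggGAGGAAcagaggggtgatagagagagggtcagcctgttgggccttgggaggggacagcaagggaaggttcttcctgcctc
C1qc: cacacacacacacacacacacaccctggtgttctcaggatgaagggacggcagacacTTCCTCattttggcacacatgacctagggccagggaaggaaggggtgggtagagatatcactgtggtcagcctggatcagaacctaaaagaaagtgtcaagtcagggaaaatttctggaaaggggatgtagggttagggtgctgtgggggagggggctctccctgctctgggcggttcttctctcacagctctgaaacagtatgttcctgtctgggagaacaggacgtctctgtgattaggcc
Lyz2: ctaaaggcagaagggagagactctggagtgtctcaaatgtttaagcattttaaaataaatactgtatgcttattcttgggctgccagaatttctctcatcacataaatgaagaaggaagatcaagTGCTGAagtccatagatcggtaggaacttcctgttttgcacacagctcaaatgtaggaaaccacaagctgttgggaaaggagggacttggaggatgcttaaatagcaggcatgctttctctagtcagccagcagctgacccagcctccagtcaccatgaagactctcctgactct
Cd68: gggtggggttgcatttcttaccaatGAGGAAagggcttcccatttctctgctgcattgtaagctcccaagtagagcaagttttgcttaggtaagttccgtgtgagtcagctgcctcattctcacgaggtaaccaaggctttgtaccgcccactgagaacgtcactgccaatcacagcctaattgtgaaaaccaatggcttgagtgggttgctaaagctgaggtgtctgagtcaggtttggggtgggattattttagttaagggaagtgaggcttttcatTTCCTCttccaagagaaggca
C1qb held 1 PU box and 1 MAF element, C1qc 1 PU box, Lyz2 1 MAF element and Cd68 2 PU boxes. A PU box was in 5 of the 8 promoters, beside 28.3% (9289) of all 32851 promoters of the same length, and a MAF element in 2 of 8, beside 19.5% (6401). A match describes the letters in this window and is not a binding site.

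Across the 6 MEF libraries the 10 genes correlated to different degrees. Pearson's r of log2 CPM is given as a description; the libraries share their depth, culture and genotype labels. Within C1q the 3 pairs had r of 0.99 to 1.00. Among Csf1r, Ptprc, Fcgr1 and Tyrobp the 6 pairs had r of 0.78 to 0.97, and among Lyz2, Mpeg1 and Cd68 the 3 pairs had r of 0.87 to 0.92. C1q with Csf1r and Tyrobp gave 0.74 to 0.86 (6 pairs), C1q with Ptprc and Fcgr1 0.45 to 0.57 (6 pairs), C1q with Cd68 0.27 to 0.33 (3 pairs) and C1q with Lyz2 and Mpeg1 −0.15 to 0.20 (6 pairs). Between those 2 sets of 4 and 3 genes the 12 pairs had r of 0.38 (Csf1r with Lyz2) to 0.92 (Ptprc with Mpeg1), with a median of 0.74. The median over all 45 pairs was 0.75.

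**Figure D2:**
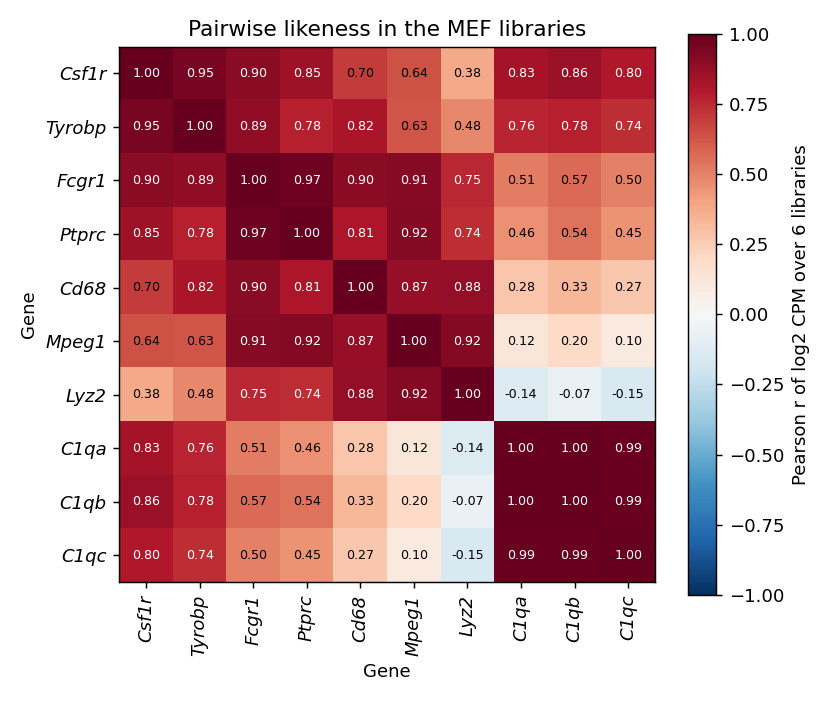
Pearson's r of log2 CPM over the 6 MEF libraries for each pair of the 10 genes, as a colour scale with the value in each cell. The 3 C1q genes form a block at 0.99 to 1.00, and their cells with Lyz2 and Mpeg1 lie between −0.15 and 0.20.

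Because most of the genes varied together from culture to culture, each was also divided by Csf1r in the same library, a choice made after the values were seen. Lyz2 was 2.87, 4.37 and 4.46 times Csf1r in WT and 20.5, 28.4 and 14.8 times in Atxn7l3-/-. Mpeg1 was 0.717, 0.503 and 0.587 against 2.02, 2.34 and 1.42 times. On this scale all 3 Atxn7l3-/- libraries lay above all WT ones for both genes, with ratios of the group means of 5.44 and 3.20. C1qa was 0.433, 0.559 and 0.581 times Csf1r in WT and 0.258, 0.0721 and 0.115 times in Atxn7l3-/-. C1qb was 0.419, 0.404 and 0.375 against 0.287, 0.0171 and 0.0289, and C1qc was 0.309, 0.443 and 0.554 against 0.192, 0.0550 and 0.0585. For the C1q genes all 3 Atxn7l3-/- libraries, Atxn7l3-/- 1 included, lay below all WT ones. Cd68 was 0.159, 0.342 and 0.246 times Csf1r against 0.490, 0.589 and 0.510 times, higher in every Atxn7l3-/- library. Ptprc (ratio of means 1.75) and Fcgr1 (1.86) were higher as well without overlap, and Tyrobp, at 0.241, 0.445 and 0.310 against 0.355, 0.358 and 0.365, overlapped.

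Relative to Csf1r, 8 of 9 genes did not overlap between genotypes: 5 were higher in Atxn7l3-/-, as were 5.89% (940) of 15957 genes divided the same way, and 3 were lower, as were 6.07% (968). Divided by Ptprc it was 6 of 9, with 2 higher (2.81% of genes) and 4 lower (9.93%), and divided by Tyrobp it was 6 of 9, with 3 higher (4.83%) and 3 lower (6.14%). Undivided, 39.8% of genes tested in MEFs did not overlap. Division adds the denominator's swing between cultures to genes that do not share it. The shares of all genes are therefore not a like measure, and the 3 C1q genes varied together. Nothing is read from these counts. With all 3 denominators the same 5 genes did not overlap: Lyz2 and Mpeg1 higher, C1qa, C1qb and C1qc lower. An exact permutation test, two-sided, gave 0.1 for each of these, the smallest p that 3 against 3 allows, so no ratio could pass a threshold of 0.05. Each ratio also carries the counting error and the culture's level of its denominator.

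**Figure D3:**
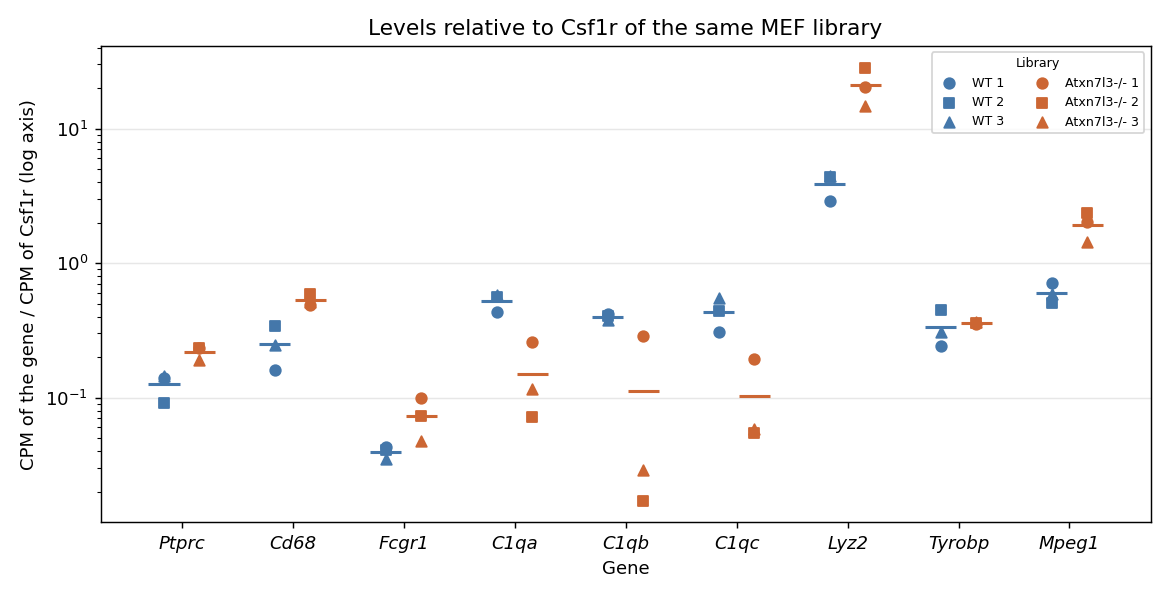
CPM of 9 genes divided by the CPM of Csf1r in the same MEF library, on a log axis, WT in blue and Atxn7l3-/- in orange, with symbols for replicates 1, 2 and 3. Lyz2 and Mpeg1 are higher and the 3 C1q genes lower in all 3 Atxn7l3-/- libraries, and Tyrobp overlaps.

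In mESCs 6 of the 10 genes (Ptprc, Fcgr1, C1qa, C1qb, C1qc and Tyrobp) were not listed and have no value here. The mESC table does list 411 genes without a count, so a gene missing from it is not shown to be at 0. Lyz2 had 4 and 1 counts in WT and 5, 2 and 6 in Atxn7l3-/-, near the floor, and was not tested. Of the 3 genes tested 1 was called by edgeR (Mpeg1, lower), beside 6.96% (1238) of 17800 genes and 3.88% called lower. Mpeg1 passed the filter only through its WT libraries, so nothing is read from this count. At an unadjusted p under 0.05 stood 2 of the 3, beside 29.8%, and DESeq2 called 2, beside 19.7%. Cd68 gave the most counts of the 10, at 62.9 and 28.8 CPM in WT and 97.4, 70.8 and 130 CPM in Atxn7l3-/-. All 3 Atxn7l3-/- libraries lay above both WT ones, with a log2 fold change of 1.12 (SE 0.39, adjusted p 0.107, not past the threshold by edgeR). DESeq2 put its adjusted p at 0.0496 and edgeR with no filter at 0.0146, within a range of 0.0146 to 0.431 over the alternatives. Without mESC WT 2 the log2 fold change was 0.66 and without mESC WT 1 it was 1.78.

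Csf1r was at 4.10 and 2.76 CPM in WT mESCs and at 1.47, 1.31 and 0.0264 CPM in Atxn7l3-/- ones. The lowest value is 1 count, and the log2 fold change of −1.87 (SE 1.04) had an adjusted p of 0.265. Mpeg1 had 47 and 21 counts (1.01 and 0.475 CPM) in WT and 4, 4 and 4 counts (0.120, 0.0953 and 0.106 CPM) in Atxn7l3-/-. It was lower in 3 of 3 Atxn7l3-/- libraries, just above the floor, with a log2 fold change of −2.77 (SE 0.60, adjusted p 0.0400). By edgeR it was not called with the replicate block (−2.67, adjusted p 0.0555) or in 1 fit of all 11 libraries (−2.81, 0.129). The call was lost without mESC WT 1 (−2.13, adjusted p 0.302), WT 2 (−3.21, 0.172), Atxn7l3-/- 1 (−2.85, 0.109) or Atxn7l3-/- 2 (−2.69, 0.0556), and over all alternatives the adjusted p ranged from 0.0105 to 0.302.

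The difference of the genotype effect between the cell types was tested in 1 fit of the 11 libraries for the 4 genes listed in both. Lyz2 passed the filter there only through its MEF counts, so its difference is not given. Mpeg1 alone passed by edgeR, with a log2 fold change 4.41 higher in MEFs than in mESCs (SE 1.13, adjusted p 0.0343), where 11.4% (2205) of 19326 genes passed, and 6.14% of the 19326 with a higher value in MEFs. The count was also 1 at an unadjusted p under 0.05 (30.9% of all genes), by DESeq2 (23.7%) and with a replicate block inside each cell type (7.15%). The other differences were 1.80 (SE 1.23, adjusted p 0.340) for Csf1r and −0.11 (SE 0.86, 0.943) for Cd68. For Mpeg1 the call was lost without mESC WT 1 (3.79, adjusted p 0.149), mESC WT 2 (4.84, 0.0796), mESC Atxn7l3-/- 1 (4.47, 0.0766), 2 (4.35, 0.0609) or 3 (4.38, 0.0765), MEF WT 2 (4.35, 0.0546) or MEF WT 3 (4.11, 0.0600). In mESCs Mpeg1 lay just above the floor in every Atxn7l3-/- library, so its difference of 4.41 is not an exact size. With at least 10 counts in every library Mpeg1 was not tested. Cell type and culture conditions cannot be told apart in this comparison.

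**Figure D4:**
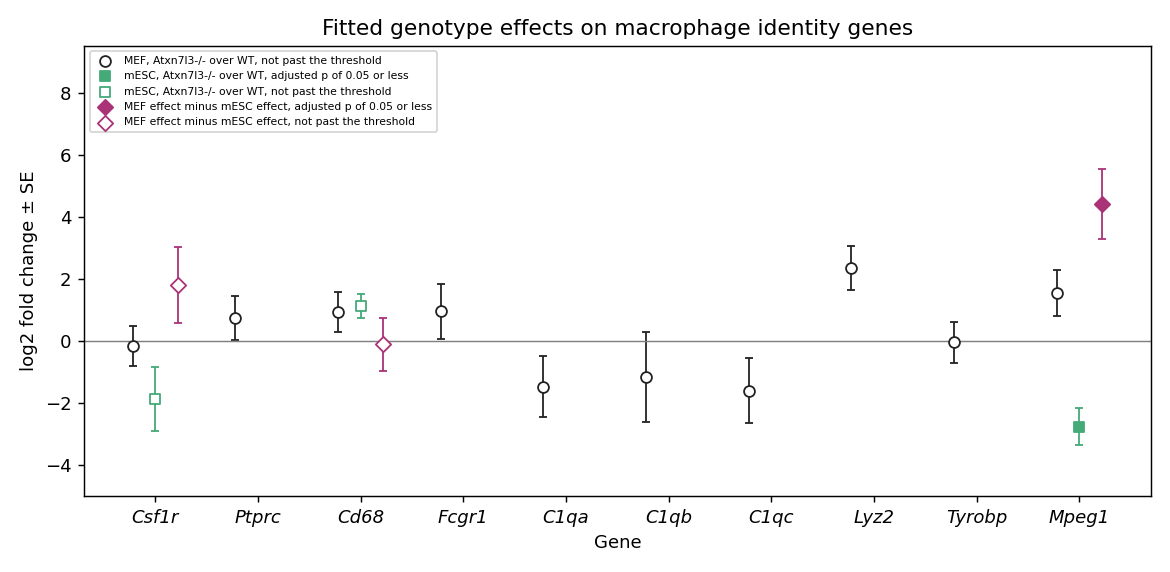
Log2 fold change of Atxn7l3-/- against WT with its standard error for each of the 10 genes in MEFs (circles) and mESCs (squares), and the MEF effect minus the mESC effect for the 3 genes tested in both (diamonds), filled where the adjusted p by edgeR was 0.05 or less. In MEFs 0 of 10 are filled, and for Mpeg1 the mESC effect (−2.77) and the difference (4.41) are. Mpeg1 lay just above the floor in Atxn7l3-/- mESCs.

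Some other genes of the macrophage and leukocyte lists passed the test in mESCs, and are named here after their values were seen. EdgeR called 0 of 9 transcription factors (2 at an unadjusted p under 0.05, 0 by DESeq2), 0 of 11 Fc receptor and ITAM genes (0 and 0) and 0 of 7 surface receptors (2 and 1). It called 1 of 6 genes of the CSF1 family (Il34, lower), 1 of 4 of the NADPH oxidase (Cyba, higher) and 1 of 10 pan-leukocyte genes (Plek, lower). The median log2 fold changes of these 6 lists were 0.05, 0.57, 0.38, −0.49, 0.53 and −0.18. Of 10 lysosomal genes tested there, edgeR called 3 higher and 0 lower (6.96% of all genes were called), with a median log2 fold change of 0.95 beside 0.04 over all genes. Ctsb, a cysteine protease, stood at 324 and 284 CPM in WT and at 860, 632 and 748 CPM in Atxn7l3-/- (1.30, adjusted p 0.0266). Ctsd, an aspartic protease, stood at 460 and 304 CPM against 838, 749 and 889 CPM (1.11, adjusted p 0.0401). Lamp2, a protein of the lysosomal membrane, stood at 182 and 145 CPM against 347, 340 and 253 CPM (0.94, adjusted p 0.0499). All 3 were higher in 3 of 3 Atxn7l3-/- libraries, the same side on which Cd68 lay. The calls of Ctsb (1.19 to 1.41) and Ctsd (0.84 to 1.43) were lost without mESC WT 1 or 2 or Atxn7l3-/- 1, and that of Lamp2 (0.79 to 1.1) also without Atxn7l3-/- 2, with adjusted p up to 0.191, 0.257 and 0.297 over the alternatives. In 1 fit of all 11 libraries all 3 lost their call, and Lamp2 lost it also with RLE or upper-quartile scaling and with a filter of at least 10 counts in every library. Cyba, a subunit of the NADPH oxidase, stood at 25.0 and 24.4 CPM against 69.7, 54.3 and 122 CPM (1.73, adjusted p 0.0355), also higher in 3 of 3 and not called in 1 fit of all 11 libraries or without mESC WT 1 or 2 or Atxn7l3-/- 1 (1.33 to 1.96, adjusted p up to 0.215). Il34 stood at 14.7 and 12.2 CPM against 3.07, 4.50 and 3.24 CPM (−1.90, adjusted p 0.0311), lower in 3 of 3 as in MEFs, with its call lost in the same 4 alternatives (−2.09 to −1.77, adjusted p up to 0.209). Plek stood at 0.988 and 0.883 CPM in WT and at 0, 0.0238 and 0 CPM in Atxn7l3-/-, at or under the floor in 3 of 3, and was at least 11.7-fold lower (adjusted p 0.0211, up to 0.142 over the alternatives). Its call too was lost without mESC WT 1 or 2 or Atxn7l3-/- 1. Of the 10 pan-leukocyte genes tested, 4 had a log2 fold change above 0, without a call by edgeR. They were Laptm5 (0.93, adjusted p 0.0504), Coro1a (0.94, 0.324), Was (0.93, 0.225) and Lcp1 (0.31, 0.832). Vav1 (−3.67, 0.0680), Dock2 (−2.69, 0.0835) and Arhgdib (−1.19, 0.0842) went the same way as Plek, also without a call. DESeq2 called 4 of the 10, Laptm5 higher and Plek, Dock2 and Arhgdib lower.

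Markers of other cells moved with these values in mESCs, lines first grown on feeder cells, and their part in the results was not tested. Fibroblast markers summed to 29.2 and 109 CPM in WT and to 319, 438 and 322 CPM in Atxn7l3-/-, led by Col1a1, and 0 of the 10 were at the floor in all libraries. Of 9 tested, 9 had a log2 fold change above 0 (median 2.54), 6 stood at an unadjusted p under 0.05, DESeq2 called 4 and edgeR 1. The gene called by edgeR, Col1a1, stood at 10.9 and 52.3 CPM in WT and at 165, 211 and 174 CPM in Atxn7l3-/- (2.54, adjusted p 0.0469), higher in 3 of 3. Its call was lost with upper-quartile scaling, in 1 fit of all 11 libraries and without mESC WT 1 or 2 or Atxn7l3-/- 1 or 2 (1.80 to 4.08, adjusted p up to 0.138). Of 7 epithelial and mesothelial markers, led by Cdh1, edgeR called 1 higher (3 at an unadjusted p under 0.05, 3 by DESeq2), with a median of −0.04 and sums of 2198 and 1269 CPM in WT and 1928, 1806 and 1513 CPM in Atxn7l3-/-. Epcam, the gene called, stood at 110 and 124 CPM against 428, 291 and 239 CPM (1.45, adjusted p 0.0317), while the keratins Krt8 (−2.30, 0.0719) and Krt18 (−1.92, 0.0916) went the other way. The call of Epcam was lost in 1 fit of all 11 libraries and without mESC WT 1 or 2 or Atxn7l3-/- 1 (1.19 to 1.61, adjusted p up to 0.215).

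Of 7 blood progenitor markers tested in mESCs edgeR called 2 lower (3 at an unadjusted p under 0.05, 2 by DESeq2), with a median of −0.18 and sums, led by Kit, of 197 and 237 CPM in WT and 266, 221 and 205 CPM in Atxn7l3-/-. These and the counts of the other mESC lists stand beside 6.96% of all genes called by edgeR (3.88% lower). At an unadjusted p under 0.05 stood 29.8% of all genes, and DESeq2 called 19.7%. Cd34 stood at 1.78 and 1.61 CPM against 0.0301, 0 and 0 CPM, at or under the floor in 3 of 3 and at least 21.1-fold lower (adjusted p 0.0211, up to 0.138 over the alternatives). Hlf had 53 and 63 counts against 4, 3 and 1, near or under the floor (−4.11, adjusted p 0.0234, up to 0.165). Both calls were lost without mESC WT 1 or 2 or Atxn7l3-/- 1. Pluripotency markers, which check the label of the cells, summed to 3764 to 4643 CPM with 0 of 7 at the floor, and edgeR called 0 of 7 (2 at an unadjusted p under 0.05, 1 by DESeq2), with a median of −0.54. In each of the other 9 lists of blood, endothelial and specialised macrophage markers edgeR called 0, DESeq2 0 to 2, and 0 to 4 genes stood at an unadjusted p under 0.05.

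Genes with the most similar profile over the 6 MEF libraries were then sought among 15948 other genes, by Pearson's r with the mean of the standardized log2 CPM of the 10. That mean was 0.32, 0.29 and −0.50 in WT, 1.31 in Atxn7l3-/- 1 and −0.43 in Atxn7l3-/- 2, and lowest in Atxn7l3-/- 3. The nearest were Arl11 (r 0.996), Gpr183 (0.993), Sash3 (0.990), Fam78a (0.989), Vav1 (0.988), Myo1f (0.988), A630001G21Rik (0.987), Cnr2 (0.985), Tnfrsf11a (0.984) and Ptpn7 (0.984). Arl11 stood at 3.00, 3.18 and 1.29 CPM in WT and at 8.15, 1.60 and 0.714 CPM in Atxn7l3-/-, high in Atxn7l3-/- 1 and low in Atxn7l3-/- 2 and 3. Of all genes compared, 141 had r above 0.9. EdgeR called 0 of these 10 nearest genes (9.41% of all genes), DESeq2 called 0 (24.8%) and 0 stood at an unadjusted p under 0.05 (32.4%). They were sought by a profile that overlaps between genotypes, so nothing is read from these counts. Their log2 fold changes were 0.03 to 0.62, with a lowest adjusted p of 0.625.

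Among ligands and receptors of the CSF1 family, 1 gene was called higher and 2 lower of 6 tested in MEFs by edgeR, with a median log2 fold change of −0.79 beside −0.06 over all genes. These and the counts of the other lists below stand beside 9.41% of all genes called in MEFs. Csf1, the main ligand of CSF1R, named here after its values were seen, stood at 530, 342 and 420 CPM in WT and 1221, 990 and 1286 CPM in Atxn7l3-/-. It was higher in 3 of 3 libraries (log2 fold change 1.44, SE 0.27, adjusted p 0.0300). Il34, the other ligand, was lower in 3 of 3, at 4.39, 4.38 and 2.92 CPM against 0.277, 0.0228 and 0.110 CPM (−4.80, SE 0.84, adjusted p 0.0240). Its level lay under the floor in Atxn7l3-/- 2 and just above it in Atxn7l3-/- 3, so −4.80 is not an exact size. Il3ra, a chain of the IL-3 receptor, stood at 8.20, 22.0 and 25.6 CPM against 3.46, 1.94 and 5.30 CPM (−2.38, SE 0.57, adjusted p 0.0488). The 2 ligands of CSF1R thus moved in opposite directions. Leaving out 1 library kept each direction but lost the call of Csf1 without any library other than Atxn7l3-/- 3 (1.32 to 1.61), of Il34 without WT 1, 2 or 3 or Atxn7l3-/- 2 (−5.84 to −4.29) and of Il3ra without WT 2 or 3 or Atxn7l3-/- 1 or 2 (−2.76 to −2.07). Il3ra also lost its call with a filter of at least 10 counts in every library. The adjusted p over the alternatives reached 0.0962, 0.0678 and 0.139. Flt3 was at the floor in all 6 libraries.

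Of 11 macrophage transcription factors tested in MEFs, edgeR called 2 higher and 1 lower, beside 9.41% of all genes, with a median log2 fold change of −0.40. Spi1, which encodes PU.1 and is named here after its values were seen, stood at 8.37, 16.0 and 7.68 CPM in WT and 12.2, 3.44 and 2.99 CPM in Atxn7l3-/-, overlapping (−0.78, adjusted p 0.423). Maf stood at 92.9, 64.5 and 41.2 CPM against 300.3, 422 and 134 CPM (2.11, SE 0.49, adjusted p 0.0455), above WT in 3 of 3. Irf5, a factor of inflammatory gene expression, stood at 10.6, 18.3 and 13.6 CPM against 52.1, 54.9 and 32.0 CPM (1.71, SE 0.32, adjusted p 0.0280), also above in 3 of 3. Nr1h3, the oxysterol receptor LXR alpha, stood at 2.14, 2.98 and 1.02 CPM against 0.346, 0.251 and 0.522 CPM (−2.45, SE 0.58, adjusted p 0.0477), below WT in 3 of 3. These calls were lost when a library was left out: Maf without any other than Atxn7l3-/- 3 (1.73 to 2.48, adjusted p up to 0.129), Irf5 without WT 1 or 3 or Atxn7l3-/- 1 or 2 (1.54 to 1.96, up to 0.0926) and Nr1h3 without any of the 6 (−2.75 to −2.05, up to 0.163). Maf also lost its call with upper-quartile scaling and with a filter of at least 10 counts in every library, and Nr1h3 with no filter. With the replicate block Nr1h3 lost its call (adjusted p 0.0714) and Runx1 gained one (0.0370, from 0.0956 without the block). Runx1 stood at 45.0, 45.6 and 63.2 CPM against 14.1, 9.28 and 33.2 CPM.

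Fc receptors and signalling genes of the ITAM pathway, which carry signals beside FCGR1 and TYROBP, gave 0 calls of 17 tested by edgeR (1 at an unadjusted p under 0.05 and 1 called by DESeq2), with a median log2 fold change of 0.12. The nearest to a call was Clec7a, the beta-glucan receptor dectin-1, at 1.28, 0.530 and 0.698 CPM against 18.4, 4.84 and 2.83 CPM (3.37, SE 0.83, adjusted p 0.0526). It was above WT in 3 of 3 libraries, and called with the replicate block (adjusted p 0.0280) and without Atxn7l3-/- 3 (3.83), in a range of 0.000200 to 0.147 over the alternatives. Of 15 surface receptors tested edgeR called 2 higher and 0 lower, a share near the 9.41% of all genes, with a median of 0.64. Mertk, which binds and engulfs dying cells, stood at 17.9, 15.5 and 11.5 CPM against 314, 384 and 127 CPM (4.20, SE 0.47, adjusted p 0.00936), above WT in 3 of 3 and called in all 13 alternatives. Cd36, a scavenger receptor for lipids, stood at 19.3, 16.9 and 10.8 CPM against 153, 77.5 and 32.1 CPM (2.48, SE 0.57, adjusted p 0.0447). It lost its call without any library other than Atxn7l3-/- 3 (1.82 to 2.91, adjusted p up to 0.130), with upper-quartile scaling and with a filter of at least 10 counts in every library. Cd163 was at the floor.

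Lysosomal genes gave 1 call of 11 tested, higher, with a median of 0.29: Lyz1, the intestinal lysozyme beside Lyz2. It stood at 0.432, 0.753 and 0.371 CPM in WT and 9.69, 13.0 and 1.65 CPM in Atxn7l3-/- (3.97, SE 0.84, adjusted p 0.0386), above WT in 3 of 3. The call was lost without any library other than Atxn7l3-/- 3 (3.46 to 4.48, adjusted p up to 0.115). Lyz1 and Lyz2 are close paralogs, so reads could be split between them. Of 6 genes of the phagocyte NADPH oxidase, which makes superoxide in phagosomes, edgeR called 0 (1 at an unadjusted p under 0.05, 1 by DESeq2), with a median of 0.26. Cyba stood at 32.6, 84.5 and 61.0 CPM against 23.8, 11 and 18.7 CPM (−1.73, SE 0.43, adjusted p 0.0533), below WT in 3 of 3.

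Pan-leukocyte genes gave 1 call of 16 tested, higher, with a median of 0.05. Arhgdib stood at 54.7, 67.2 and 64.0 CPM against 445, 594 and 179 CPM (2.71, SE 0.45, adjusted p 0.0217), above WT in 3 of 3. The call was lost without any library other than Atxn7l3-/- 3 (2.34 to 3.09, adjusted p up to 0.0761). Plek, a substrate of protein kinase C in blood cells, stood at 26.5, 16.4 and 13.2 CPM against 140, 59.1 and 23.6 CPM (1.99, adjusted p 0.0905) and was called with the replicate block (0.0410) and without Atxn7l3-/- 3 (2.45). Over its alternatives the adjusted p ranged from 0.0134 to 0.223. The summed level of the pan-leukocyte list was 440.1, 418 and 236 CPM in WT and 1309, 888 and 333 CPM in Atxn7l3-/-. The most abundant gene was Lcp1 in WT 1 and 2 and Arhgdib in the other libraries. Without it the sums were 347, 318 and 172 CPM in WT and 864, 294 and 154 CPM in Atxn7l3-/-, and overlapped.

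Markers of other cells moved in the same cultures, and their part in the values above was not tested. Markers of granulocytes and monocytes summed to 0.638, 1.26 and 0.567 CPM in WT and 3.85, 6.50 and 3.19 CPM in Atxn7l3-/-. Of 13 such genes 2 were tested and 1 was called higher by edgeR, Ms4a3, which had 0 reads in all 3 WT libraries and 2.93, 5.57 and 2.94 CPM in Atxn7l3-/- (at least 55.7-fold higher against the floor, adjusted p 0.0127). Mpo, Ly6c2, S100a9 and Ly6g were at the floor, and Elane, Ctsg and Ngp were not listed. The list's median was 5.87, or 3.59 with that gene at its bound. Mast cell and basophil markers summed to 3.30, 1.12 and 3.53 CPM against 15.7, 44.4 and 17.4 CPM, with 1 of 2 tested called higher by edgeR (2 by DESeq2) and a median of 1.75. The called gene, Ms4a2, stood at 0.375, 0.335 and 0.284 CPM against 15.3, 44.2 and 16.7 CPM (6.25, SE 0.59, adjusted p 0.00684), above WT in 3 of 3. The other, Mcpt8, the most abundant of the list in all 3 WT libraries, went the other way, at 2.40, 0.390 and 2.84 CPM against 0.277, 0.0684 and 0.494 CPM (−2.75, SE 0.95, adjusted p 0.106). It was called with the replicate block (0.0281) and by DESeq2 (0.0241), in a range of 0.0241 to 0.251 over its alternatives. Mcpt4, Tpsb2 and Tpsab1 were at the floor and Fcer1a was not listed.

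Among the other blood lists, those of dendritic, lymphoid, erythroid and megakaryocyte markers were low in reads. Dendritic markers summed to 8.70 to 14.5 CPM, led by Cd74 in WT 1 and by Zbtb46 in the other libraries, with Xcr1, Clec9a and Cd209a not listed. EdgeR called 0 of 4 (3 at an unadjusted p under 0.05, 3 by DESeq2), with a median of −1.70. Cd74 was at −2.83 and H2-Ab1 at −2.81, while Zbtb46 went the other way (1.06, adjusted p 0.0952), called by DESeq2 (0.0177, range over its alternatives 0.0177 to 0.246). Lymphoid markers summed to 0.558 to 2.52 CPM, with the most from Il7r, the 1 gene tested, which was not called by either tool (median 0.89), and Ms4a1 and Rag2 were at the floor. Erythroid markers summed to 0.872 to 10.9 CPM, with Hba-a1, Hba-a2, Hbb-bh1 and Gata1 at the floor and Hba-x and Hbb-y not listed. Of 2 tested, edgeR called 1 higher (Alas2, 5.42, adjusted p 0.0387), a call lost with the replicate block (0.0656) and without WT 1, 2 or 3 or Atxn7l3-/- 1 (4.72 to 6.19, adjusted p up to 0.0953). The other, Epor, went the opposite way (−1.65, adjusted p 0.0790) and was called lower by DESeq2 (0.0422, range 0.0422 to 0.247), so the median of 1.89 lies between opposite values. Megakaryocyte markers summed to 7.18 to 24.9 CPM, with Gp9 at the floor and a median of −1.28, and edgeR called 0 of 3 (0 at an unadjusted p under 0.05, 0 by DESeq2). Blood progenitor markers summed to 72.1 to 155 CPM with a median of −0.68, and edgeR called 0 of 7 (1 at an unadjusted p under 0.05, 1 by DESeq2).

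Specialised macrophages were looked at through a pair of lists. Microglia markers summed to 64.1 to 194 CPM, led by Tmem119, with a median of −0.15 and Siglech not listed. Without Tmem119 these markers summed to 46.3, 7.20 and 10.7 CPM in WT and 14.0, 1.85 and 1.21 CPM in Atxn7l3-/-. EdgeR called 0 of 4 of them (1 at an unadjusted p under 0.05, 1 by DESeq2); with the replicate block Sall1 was called (−5.44, adjusted p 0.0156, range over its alternatives 0.000175 to 0.136). Osteoclast markers summed to 2.29 to 26.0 CPM, with a median of −1.21 and with Ocstamp and Calcr at the floor, and 0 of 3 were called by edgeR (1 at an unadjusted p under 0.05, 1 by DESeq2). The block called Ctsk (−3.80, adjusted p 0.0472, range 0.000109 to 0.173). Fibroblast markers, which check the label of the cells, summed to 6950, 38578 and 13728 CPM in WT and 16216, 18279 and 23014 CPM in Atxn7l3-/-, led by collagens. Their median was −0.73, and edgeR called 0 of 10 (1 at an unadjusted p under 0.05, 1 by DESeq2). Of the 10, 3 had a log2 fold change above 0. The block called Dcn (4.38, adjusted p 0.0249, range 0.00274 to 0.221) and Pdgfra (2.35, 0.0276, range 0.0276 to 0.574), both higher. Lum, with the largest change of the list, was lower (−5.12, adjusted p 0.202). With the block Lum was at −3.15 (0.0648, range 0.0648 to 0.644) and Prrx1 at −3.85 (0.123, range 0.0259 to 0.509), both lower without a call.

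Lists of other cells were read in the same way. Epithelial and mesothelial markers summed to 9.84, 27.4 and 7.33 CPM in WT and 3232, 2242 and 2399 CPM in Atxn7l3-/-, with 4 of 6 tested called higher (Upk3b, Msln, Wt1 and Krt18) and a median of 6.10. Cdh1, a cadherin of epithelia named here after its values were seen, was lower (−1.58, adjusted p 0.229), and Upk3b, Msln and Wt1 are markers of mesothelium. Krt18 lost its call without WT 1, WT 3 or Atxn7l3-/- 1 (5.04 to 5.98, adjusted p up to 0.0648). Their most abundant gene, Upk3b, stood at 3.90, 16.3 and 3.75 CPM against 2004, 1601 and 1570 CPM (7.76, SE 0.80, adjusted p 0.00793), and the sums of these markers were thus high in all 3 Atxn7l3-/- cultures, unlike those of the macrophage genes. Endothelial markers summed to 86.4, 38.9 and 29.0 CPM against 19.8, 10.2 and 5.49 CPM, with 1 of 7 called lower by edgeR (Flt1, −4.06, adjusted p 0.0114; 3 at an unadjusted p under 0.05, 3 by DESeq2) and a median of −2.85, or −1.93 with Cdh5 at its bound (at least 3.81-fold lower). Tek, named after its values were seen, was higher and the most abundant of the list in Atxn7l3-/- 1 and 2 (2.75, adjusted p 0.173). The replicate block also called Kdr (−2.34, adjusted p 0.0274, range 0.0274 to 0.449). Cldn5 was not listed. Pluripotency markers summed to 39.2 to 89.0 CPM, with 1 of 4 called higher (Tfcp2l1, 5.36, adjusted p 0.00591), a median of −0.71, and Pou5f1 and Zfp42 not listed; the block called Sox2 (−4.69, adjusted p 0.0411, range 0.0411 to 0.398).

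**Figure D5:**
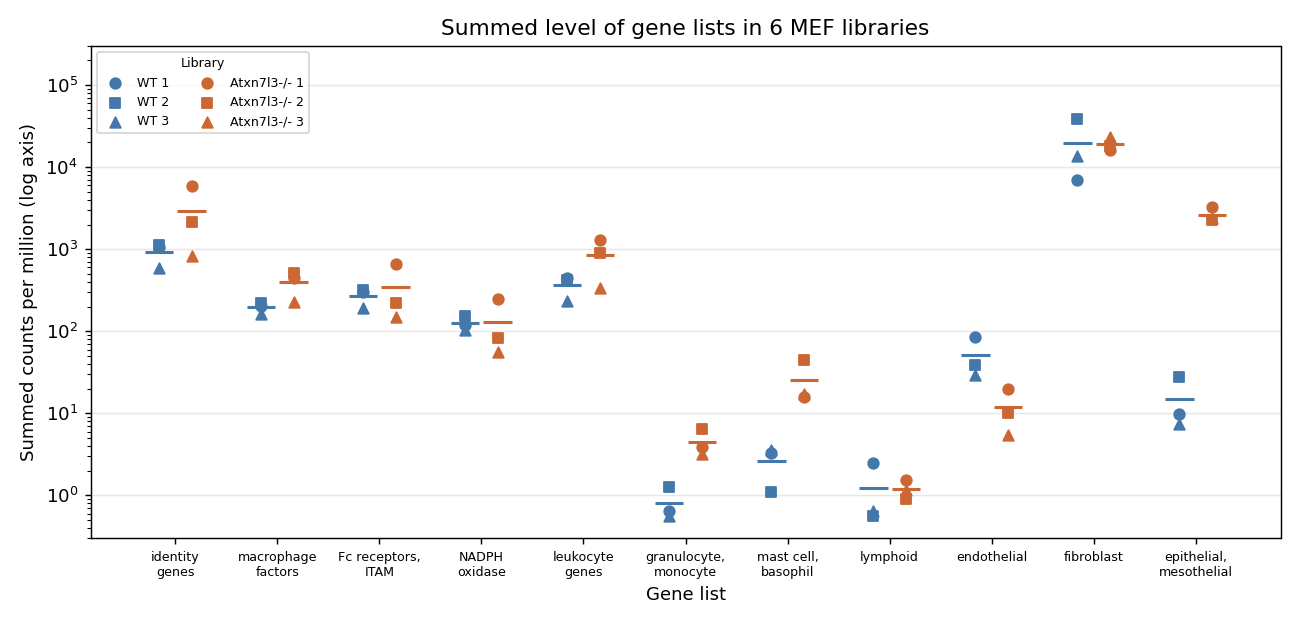
Summed CPM of marker lists in the 6 MEF libraries, on a log axis, WT in blue and Atxn7l3-/- in orange, with symbols for replicates 1, 2 and 3. The 10 macrophage genes, at 583 to 1131 CPM in WT and 827 to 5819 CPM in Atxn7l3-/-, overlap between genotypes, while the epithelial and mesothelial list does not.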

How the data were processed

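Poly(A) RNA of 11 libraries was read as raw counts per gene deposited by the authors, made with bcl2fastq 2.17.1.14, cutadapt 1.10, STAR 2.5.3a on mm10 and HTSeq 0.6.1p1. The deposited tables also hold the authors' signal, which is the count divided by a DESeq2 1.16.1 size factor per library within each cell type, the same signal per kb of median transcript length, and that length. The annotation release and counting strand were not stated. A deposited column with no name (1, in the MEF table) equalled the median of the 6 per-kb columns within 5.0e-05 and was not used. The authors' fold changes and p-values, from DESeq2's Wald test of Atxn7l3-/- against WT, were not used. The study left out 1 WT mESC dataset after a principal component analysis.

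Counts were scaled by TMM and fitted per cell type with edgeR 4.0.16 in R 4.3.3 (filterByExpr, quasi-likelihood test, Benjamini-Hochberg over all genes tested, adjusted p of 0.05 or less). The difference between cell types was fitted over the 19326 genes that passed the filter among those listed in both tables. Log2 CPM used a prior count of 2. A gene missing from a table was given no value, except that the fit of all 11 libraries entered it as 0 counts there; genes listed without a count number 0 for MEFs and 411 for mESCs. Totals were between 34515342 and 49602605 counts per library. Ratios used CPM, with exact permutation tests. Python 3.11.15, pandas 2.3.3, numpy 2.4.6 and matplotlib 3.10.9 made tables and plots, and the fit was tested on simulated data.

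Alternatives were RLE and upper-quartile scaling, no filter, at least 10 counts in every library, DESeq2 1.42.0, the replicate number as a block, leaving out each library and 1 fit of all 11 libraries; levels were also taken as the authors' normalized reads per kb and as CPM of raw totals. Ratios to Ptprc and Tyrobp and ratios with each library left out were added after the data were seen. In MEFs, deviations from the group mean correlated between WT and Atxn7l3-/- libraries of the same number (r 0.473, 0.161 and 0.240 over 15958 genes for the 3 pairs), so the numbers were treated as possible pairs and MEF values with the block are given where it changes the call of a named gene, or moves the fold change of 1 of the 10 genes by more than 1.5 times.

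The genes and lists were chosen with earlier results of these data known. Named were the 10 genes, Atxn7l3, up to 4 genes of each other list with the largest fold change in MEFs and its defining markers at or near 0, and the 10 genes with the most similar profile; others are said to be chosen after their values were seen. The value of 1 list gene is not reported here.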

Additional observations from a re-analysis of the deposited data

Results flagged for a closer look

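The genotype effect was compared between MEFs and mESCs for 73 genes named or listed above, and 19 differed by edgeR's test of the difference itself, with Benjamini-Hochberg adjustment over all 19326 genes tested, of which 11.4% (2205) differed. The 73 were chosen in part for the largest change of their list in MEFs, so their share is not set against that of all genes. Values are the log2 fold change in MEFs minus that in mESCs. Cell type and culture cannot be told apart, and MEF libraries labelled Atxn7l3-/- kept 0.599 of WT reads of Atxn7l3, against 0.0100 in mESCs.

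Of the macrophage identity genes, Mpeg1 differed by 4.41 (adjusted p 0.0343), with 1.55 in MEFs and −2.77 in mESCs. Mpeg1 lay just above the floor in Atxn7l3-/- mESCs, so 4.41 is not an exact size. Atxn7l3 itself differed by 5.97 (adjusted p 0.000664). Among pathway genes, Arhgdib differed by 3.97 (adjusted p 0.00458) and Mertk by 3.20 (0.00971, with 4.20 in MEFs and 1.08 in mESCs). Plek also differed (adjusted p 0.00489), but it was at or under the floor in Atxn7l3-/- mESCs, so the fitted 8.34 is not an exact size. Plek was at least 11.7-fold lower in mESCs, beside a log2 fold change of 1.99 in MEFs. Cyba differed by −3.40 (0.0125), with −1.73 in MEFs and 1.73 in mESCs, and so took opposite directions. Ctsd differed by −1.50 (0.0453; −0.45 and 1.11) and Il3ra by −2.79 (0.0414; −2.38 and 0.47).

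Among markers of other cells, Ctsk differed by −6.09 (adjusted p 0.0281), H2-Ab1 by −3.88 (0.0475) and Kit by −3.77 (0.0408). Hlf differed by 4.92 (0.0223) and Flt1 by −3.02 (0.0201). Cd34 differed as well (0.00449), but it was at or under the floor in Atxn7l3-/- mESCs, so the fitted 7.63 is not an exact size. Cd34 was at least 21.1-fold lower in mESCs, beside a log2 fold change of 0.45 in MEFs. Upk3b differed by 7.87 (0.00200), Msln by 6.83 (0.00396), Wt1 by 7.32 (0.000747), Krt18 by 7.49 (0.00545) and Tfcp2l1 by 5.33 (0.000597), each with a higher level in Atxn7l3-/- MEFs. Their log2 fold changes in mESCs were, in the same order, −0.04, 0.89, −0.55, −1.92 and 0.11. Why these effects differed was not tested.

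With a replicate block inside each cell type 5 of the 19 were not past the threshold: Il3ra (adjusted p 0.0848), Ctsd (0.0692), H2-Ab1 (0.0648), Kit (0.0888) and Flt1 (0.0535). Ctsd and H2-Ab1 also lost the call with no filter. Of the 11 fits that each left out a library, the call was lost in 9 for Ctsd (−1.80 to −1.23), 9 for H2-Ab1 (−5.57 to −3.33), 8 for Il3ra (−3.16 to −2.49), 8 for Kit (−5.86 to −3.14), 7 for Mpeg1 (3.30 to 4.87) and 4 for Ctsk (−6.63 to −4.17). It was also lost in 3 for Hlf (without mESC WT 1, mESC WT 2 or mESC Atxn7l3-/- 3, 4.41 to 5.72), in 2 for Flt1 (−3.32 to −2.76) and 2 for Cyba (−3.70 to −3.02), both without mESC WT 1 or WT 2, and in 1 for Mertk (without mESC WT 1, adjusted p 0.0523). The adjusted p over all alternatives reached 0.192 for Ctsd, 0.185 for H2-Ab1, 0.159 for Il3ra, 0.158 for Kit, 0.149 for Mpeg1, 0.139 for Ctsk, 0.0878 for Hlf, 0.101 for Flt1 and 0.0754 for Cyba. The other 9 kept their call in every alternative run.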

How the results depend on the processing

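In MEFs 0 of the 10 genes were called; RLE and upper-quartile scaling, at least 10 counts in every library and the replicate block gave 0, no filter 1, DESeq2 1 and 1 fit of all 11 libraries 1, and leaving out a library 0 to 3. In mESCs 1 was called; RLE and upper-quartile scaling gave 1, no filter gave 2, DESeq2 2, at least 10 counts 0, the replicate block 0 (Mpeg1 −2.67, adjusted p 0.0555) and 1 fit of all libraries 0, and leaving out a library 0 to 1. For the difference between cell types 1 was called; both scalings, no filter, DESeq2 and the block gave 1, at least 10 counts gave 0, and leaving out a library 0 to 1. In mESCs, same-numbered libraries did not correlate (r 0.008 and −0.172), so the block there rests on the numbers alone. The block changed no other call of the 10 genes. Of the 10 genes 7 were highest in MEF Atxn7l3-/- 1 by CPM, by CPM of raw totals and by the authors' reads per kb alike. Ratios to Csf1r separated 8 of 9 genes, and 6 were separated with each other denominator. With a library left out it was 8 to 9, but this count cannot fall, since separate groups stay separate with fewer libraries. Over all genes, calls were 1501 in MEFs (846 to 3936, and 197 to 2038 with a library left out), 1238 in mESCs (464 to 3436, and 0 to 2242) and 2205 for the difference (1381 to 4289, and 253 to 3140). The cause of these changes was not tested, except that leaving out a library leaves fewer samples; a lone mESC WT library was assumed to vary like the others.

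The signs of some fold changes turned, among them that of Lum, which was at −5.12 with all MEF libraries. With the replicate block Tmem119 was at 0.09, Arl11 −0.14, Sash3 −0.10, Fam78a −0.23, A630001G21Rik −0.22 and Cnr2 −0.03. With no filter P2ry12 was at 0.03 and Gpr34 at 0.06, and in 1 fit of all libraries at 0.01 and 0.03. A630001G21Rik was at −0.07 with upper-quartile scaling and −0.03 with at least 10 counts. With a library left out, ranges that crossed 0 were −1.19 to 0.26 for Csf1r, −0.38 to 1.20 for Ptprc, −0.56 to 1.47 for Fcgr1, −1.06 to 0.41 for Tyrobp, −0.23 to 1.1 for Ctsc, −0.44 to 1.00 for Rac2, −0.37 to 0.99 for Ncf1, −0.61 to 0.74 for Tmem119, −1.87 to 0.98 for P2ry12, −2.0 to 1.54 for Gpr34, −8.26 to 1.12 for Lum, −1.09 to 1.01 for Arl11, −0.89 to 0.92 for Gpr183, −0.87 to 0.66 for Sash3, −1.11 to 0.58 for Fam78a, −0.76 to 0.78 for Myo1f, −0.81 to 0.43 for A630001G21Rik, −1.11 to 1.1 for Cnr2, −0.52 to 0.50 for Tnfrsf11a and −0.61 to 0.94 for Ptpn7, and −1.07 to 0.37 for the difference of Cd68 between cell types. With 3 cultures a group and these spreads, changes of the size seen for most of the 10 genes could not be told from variation between cultures, and levels up to 3 counts could not be told from 0.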
